A study of Mus musculus with 16 samples.

Results

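The genes described here encode LIM proteins (*Pdlim3*, *Pdlim5*, *Pdlim7*, *Csrp1*, *Csrp2* and *Crip1*), filamin A (*Flna*), linkers of focal adhesions (*Actn1* and *Vcl*) and a muscle-associated protein without a LIM domain (*Mustn1*), 10 of the 49437 genes used from the deposited tables. They were selected by symbol after their measured values in the 4 groups had been seen, so their own levels and differences are given as a description, with no test. All 10 were present in each table, each as 1 row. RNA was sequenced from tdTomato-positive cells sorted from the left lung lobe of 16 mice, 4 in each group. *Acta2-tdT* mice (Acta2-CreERT2; tdTomatoflox) received saline or bleomycin and ate food with tamoxifen at 400 mg/kg from day 5 after the agent. *Pdgfra-tdT* mice (Pdgfra-CreERT2; tdTomatoflox) received saline or bleomycin after 5 intraperitoneal injections of 3 mg tamoxifen at 6 weeks of age. All mice were male and were 11 weeks old at harvest, 14 days after the agent. Bleomycin is a drug that injures the lung and leads to fibrosis. In both lines every mouse carries a tamoxifen-inducible Cre and a floxed tdTomato reporter, and Cre is driven by a transgenic *Acta2* or *Pdgfra* promoter, so the label marks cells in which that promoter was active around tamoxifen. The lines were labelled by different routes and at different times, before injury in *Pdgfra-tdT* and during it in *Acta2-tdT*, and a difference between lines cannot be told apart from a difference between the labelling protocols.

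LIM domains are zinc-binding protein modules that dock onto other proteins, and in muscle and in fibroblasts many LIM proteins sit on actin bundles, stress fibers or focal adhesions. At a focal adhesion, integrins in the membrane are coupled to actin through talin and vinculin, while alpha-actinin and filamin cross-link the actin filaments behind it. Smooth muscle cells use these proteins to anchor their contractile filaments, and myofibroblasts of injured tissue build large adhesions and stress fibers from the same families. Many genes of this machinery are known targets of serum response factor, which binds the CArG box, and others of TEAD factors, which bind the M-CAT element CATTCC.

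Promoter sequence was searched for both elements, to show the regulatory stretch of members whose levels moved apart from each other below. In the RefSeq promoter windows of GRCm38.p6, which run from 250 bases before a transcript start to 50 bases after it, 9 of the 10 members matched by symbol, with 11 windows; *Csrp2* did not match. A CArG box, searched on both strands, was present in 1 member, *Vcl*, 227 bases before the start, and in 1.63% of all 32851 windows. CATTCC or its reverse complement GGAATG was present in 4 members and in 14.7% of all windows. *Pdlim3* held GGAATG 201 bases and CATTCC 11 bases before its start, *Vcl* held GGAATG 143 bases before, *Flna* held CATTCC 146 bases before, and *Mustn1* held CATTCC beginning at base 25 of the transcript. The stretches are shown 5′ to 3′ for *Vcl* at chr14:20929148-20929397 (plus strand, CArG box in capitals), *Pdlim3* at chr8:45885237-45885486 (plus strand, CATTCC and GGAATG in capitals) and *Mustn1* at chr14:30879007-30879286 (plus strand, CATTCC in capitals). They are printed because *Vcl* was the only member with a CArG box in these windows, *Pdlim3* the only one with CATTCC and GGAATG both, and *Mustn1* had the highest level of the members with either match.
Vcl: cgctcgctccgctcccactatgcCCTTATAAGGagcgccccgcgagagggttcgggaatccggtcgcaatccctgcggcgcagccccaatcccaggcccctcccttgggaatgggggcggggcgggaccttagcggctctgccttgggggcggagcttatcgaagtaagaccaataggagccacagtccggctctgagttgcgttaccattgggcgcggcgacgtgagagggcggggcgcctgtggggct
Pdlim3: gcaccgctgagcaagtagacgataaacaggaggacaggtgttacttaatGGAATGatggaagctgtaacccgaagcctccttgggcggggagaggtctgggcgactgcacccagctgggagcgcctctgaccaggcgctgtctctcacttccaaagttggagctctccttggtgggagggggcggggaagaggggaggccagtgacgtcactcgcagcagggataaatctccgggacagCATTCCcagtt
Mustn1: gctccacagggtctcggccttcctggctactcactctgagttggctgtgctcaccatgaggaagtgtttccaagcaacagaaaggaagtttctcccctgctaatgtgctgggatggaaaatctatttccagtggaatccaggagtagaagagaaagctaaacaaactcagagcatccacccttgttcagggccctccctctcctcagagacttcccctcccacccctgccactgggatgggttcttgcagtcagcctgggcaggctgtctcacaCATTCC
These matches describe letters only, and binding was not measured here.

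Values are FPKM, fragments normalized to transcript length and to the number of mapped fragments, which the authors computed mouse by mouse. The summed FPKM of 21950 nuclear protein-coding genes lay between 35602 and 57788 in *Acta2-tdT* saline, 231058 and 463127 in *Acta2-tdT* bleomycin, 29964 and 59840 in *Pdgfra-tdT* saline and 28512 and 137952 in *Pdgfra-tdT* bleomycin. Levels and differences are therefore given as deposited and, where the scale matters, again after scaling every mouse to a common sum of 49122, the median of the 16 sums, and the second is called scaled FPKM. Since cells were sorted in bulk, a lower level can come from fewer cells of a type or from less RNA per cell, and these cannot be told apart. *Acta2* ranged from 139 to 314 FPKM in *Acta2-tdT* saline and from 2.59 to 11.0 FPKM in *Pdgfra-tdT* saline, and *Pdgfra* from 0.273 to 0.562 and from 2.14 to 3.82 FPKM, each higher in its own line. With bleomycin *Pdgfra* was 2.49 to 11.9 FPKM in *Acta2-tdT* mice and 0.977 to 2.45 FPKM in *Pdgfra-tdT* mice, so as deposited it was higher in the other line. Scaled, it was 0.529 to 1.26 and 0.873 to 2.33, with means of 1.01 and 1.56, so the order of the means turned back and the ranges overlapped. Of 8 fibroblast markers, 2 had FPKM of at least 1 in every *Pdgfra-tdT* saline mouse and none in every *Pdgfra-tdT* bleomycin mouse, where *Tcf21* was listed at 0 throughout, so the labelled cell type had little support from its defining markers. The 6 smooth muscle markers summed to between 235 and 348 scaled FPKM in *Acta2-tdT* saline, 325 and 497 in *Acta2-tdT* bleomycin, 6.51 and 21.0 in *Pdgfra-tdT* saline and 1.70 and 11.3 in *Pdgfra-tdT* bleomycin, and none was at 0 throughout a group.

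The PDZ-LIM proteins carry a PDZ domain that binds alpha-actinin and LIM domains that recruit further partners. *Pdlim3* (ALP, chr8:45885461-45919548, GRCm38) is the family member known from the Z-discs of muscle. Its FPKM in *Acta2-tdT* saline mice 1 to 4 was 6.53, 4.70, 7.60 and 10.05, and in *Acta2-tdT* bleomycin mice 5 to 8 it was 8.99, 18.1, 22.2 and 36.1. In *Pdgfra-tdT* cells it was 0.119 to 0.297 FPKM with saline, and with bleomycin 2 mice were listed at 0 and the others had 0.0402 and 0.0483 FPKM. All *Acta2-tdT* mice were thus above all *Pdgfra-tdT* mice. After scaling, the order of treatments in *Acta2-tdT* cells turned around, with 8.70, 6.49, 7.69 and 8.54 scaled FPKM with saline and 1.39, 3.84, 2.50 and 3.83 with bleomycin, and every bleomycin mouse lay below every saline mouse.

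*Pdlim5* (ENH, chr3:142239590-142395696) and *Pdlim7* (Enigma, chr13:55498416-55513446) encode PDZ-LIM proteins that also bind protein kinases through their LIM domains. *Pdlim5* FPKM was 1.43, 1.40, 1.43 and 3.24 in *Acta2-tdT* saline mice and 32.9, 22.3, 27.6 and 51.4 in *Acta2-tdT* bleomycin mice. It was 1.67, 1.29, 3.22 and 1.24 FPKM in *Pdgfra-tdT* saline mice and 8.76, 1.17, 1.37 and 1.15 in *Pdgfra-tdT* bleomycin mice. The lines overlapped with saline. Scaled *Pdlim5* in *Acta2-tdT* cells lay between 1.45 and 2.75 after saline and between 3.11 and 5.45 after bleomycin, with no overlap. *Pdlim7* FPKM was 2.18, 1.72, 2.33 and 5.18 in *Acta2-tdT* saline mice and 42.9, 18.6, 56.3 and 53.7 in *Acta2-tdT* bleomycin mice. It was 0.0859, 0.118, 5.50 and 0.355 FPKM in *Pdgfra-tdT* saline mice and 7.29, 0.704, 0.628 and 0.386 in *Pdgfra-tdT* bleomycin mice. In each *Pdgfra-tdT* group a single mouse was far above the others, mouse 3 with saline and mouse 5 with bleomycin. Scaled *Pdlim7* in *Acta2-tdT* cells lay between 2.36 and 4.41 after saline and between 3.95 and 6.63 after bleomycin, and the ranges overlapped.

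The cysteine-rich proteins are short LIM-only proteins that bind alpha-actinin and zyxin. *Csrp1* (chr1:135720061-135752232) is widely expressed in smooth muscle, and its FPKM was 4.23, 2.52, 4.13 and 10.3 in *Acta2-tdT* saline mice and 69.4, 40.4, 121 and 143 in *Acta2-tdT* bleomycin mice. It was 0.367, 0.244, 2.95 and 0.709 FPKM in *Pdgfra-tdT* saline mice and 9.83, 1.69, 0.670 and 0.107 in *Pdgfra-tdT* bleomycin mice. Scaled *Csrp1* in *Acta2-tdT* cells lay between 3.47 and 8.79 after saline and between 8.59 and 15.1 after bleomycin, where only the highest saline mouse reached into the bleomycin range. *Csrp2* (smLIM, chr10:110920177-110939599), known from vascular smooth muscle, was 3.26, 6.55, 10.3 and 11.6 FPKM in *Acta2-tdT* saline mice and 146, 110.5, 144 and 258 in *Acta2-tdT* bleomycin mice. In *Pdgfra-tdT* cells it was 1.04, 1.13, 2.35 and 1.12 FPKM with saline and 62.5, 11.1, 0.366 and 0.527 with bleomycin, the widest spread of any member in any group on the log2 scale. Scaled *Csrp2* in *Acta2-tdT* cells lay between 4.35 and 10.4 after saline and between 16.3 and 27.4 after bleomycin, and the groups did not overlap.

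*Crip1* (chr12:113148705-113153879) encodes a small protein with 1 LIM domain that is also abundant in immune cells and in intestine. It had the highest level of the members in all 16 mice. Its FPKM was 243, 292, 459.5 and 497 in *Acta2-tdT* saline mice and 1697, 1250.5, 2292 and 2548 in *Acta2-tdT* bleomycin mice. It was 35.4, 10.8, 127 and 21.7 FPKM in *Pdgfra-tdT* saline mice and 612, 241, 224 and 30.4 in *Pdgfra-tdT* bleomycin mice. Scaled *Crip1* in *Acta2-tdT* cells lay between 324 and 465 after saline and between 258 and 270.3 after bleomycin, so every bleomycin mouse was below every saline mouse, and its SD over the 4 bleomycin mice was 5.10 around a mean of 264. Of 14 leukocyte markers none was at 0 in a whole group. In *Acta2-tdT* mice their scaled sum lay between 1230 and 1713 after saline and between 661 and 1249 after bleomycin, with overlap, and in *Pdgfra-tdT* mice between 48.1 and 244 after saline and between 713 and 1941 after bleomycin. The sum thus lay on the same side as *Crip1* between the lines with saline and between treatments in *Pdgfra-tdT* cells. Within it the genes did not move together in *Acta2-tdT* cells: scaled *S100a8* was lower with bleomycin, at 617 to 903 and 78.9 to 551, while *Lyz2* was higher, at 49.6 to 148 and 151 to 448. Between the lines with bleomycin *Crip1* was higher in *Acta2-tdT* cells and the ranges of the leukocyte sum overlapped. The part of leukocytes in the *Crip1* level was not tested.

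*Mustn1* (Mustang, chr14:30879257-30881608) encodes a small protein of the musculoskeletal system that is also found in smooth muscle; it has no LIM domain. Its FPKM was 59.4, 78.4, 139 and 114 in *Acta2-tdT* saline mice and 59.3, 87.5, 95.4 and 185 in *Acta2-tdT* bleomycin mice. It was 1.03, 0.255, 5.21 and 0.984 FPKM in *Pdgfra-tdT* saline mice and 14.4, 2.62, 1.26 and 0.467 in *Pdgfra-tdT* bleomycin mice. As deposited, the treatments overlapped in *Acta2-tdT* cells and the lines stood far apart. Scaled *Mustn1* in *Acta2-tdT* cells was 79.2, 108, 141 and 97.2 with saline and 9.16, 18.6, 10.7 and 19.7 with bleomycin, the largest scaled difference between treatments of any member. *Myh11*, the smooth muscle myosin heavy chain, moved the same way on this scale, from 9.74 to 11.8 scaled FPKM with saline to 1.66 to 3.32 with bleomycin, and was named after its values were seen. Of the other 5 smooth muscle markers none was lower without overlap. Scaled *Des* lay between 10.3 and 13.8 after saline and between 35.6 and 61.9 after bleomycin, and *Actg2* at 13.7 to 26.7 and 36.9 to 59.3, both higher without overlap, while *Acta2* at 186 to 267 and 223 to 341, *Cnn1* at 8.85 to 21.6 and 11.6 to 26.6 and *Tagln* at 6.27 to 8.16 and 4.18 to 6.66 overlapped. In the same mice the 8 fibroblast markers summed to between 26.4 and 34.5 scaled FPKM after saline and between 221 and 336 after bleomycin. The 6 pericyte markers summed to between 9.76 and 14.7 after saline and between 7.05 and 8.69 after bleomycin. They were split, with *Notch3* lower, at 0.922 to 1.41 and 0.0620 to 0.411, and *Cspg4* higher, at 0.348 to 0.784 and 0.892 to 1.95. The part of a changed mixture of cells in the members' levels was not tested.

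*Flna* (filamin A, chrX:74223461-74249820) cross-links actin filaments and links them to integrins. Its FPKM was 6.42, 5.45, 5.62 and 9.37 in *Acta2-tdT* saline mice and 67.5, 34.0, 67.5 and 76.3 in *Acta2-tdT* bleomycin mice. It was 0.203, 0.368, 0.898 and 0.364 FPKM in *Pdgfra-tdT* saline mice and 4.67, 0.716, 0.427 and 0.148 in *Pdgfra-tdT* bleomycin mice. Once scaled, the treatments overlapped in *Acta2-tdT* cells, at 5.68 to 8.56 with saline and 7.23 to 10.4 with bleomycin, and all *Acta2-tdT* mice stayed above all *Pdgfra-tdT* mice, whose highest scaled value was 1.66.

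*Actn1* (alpha-actinin 1, chr12:80167542-80260371) and *Vcl* (vinculin, chr14:20929433-21033673) encode the nonmuscle actin cross-linker and the adaptor between talin and actin. They had the lowest mean FPKM of the members in both *Acta2-tdT* groups. *Actn1* FPKM was 0.116, 0.509, 0.511 and 0.660 in *Acta2-tdT* saline mice and 8.76, 5.95, 4.46 and 5.36 in *Acta2-tdT* bleomycin mice, and 0.210 to 0.936 and 0.133 to 1.12 in *Pdgfra-tdT* saline and bleomycin mice. Scaled *Actn1* overlapped between treatments in *Acta2-tdT* cells, at 0.154 to 0.702 with saline and 0.503 to 1.35 with bleomycin. *Vcl* FPKM was 0.566, 0.496, 0.634 and 0.908 in *Acta2-tdT* saline mice and 12.9, 6.502, 17.0 and 17.5 in *Acta2-tdT* bleomycin mice. It was 0.138, 0.108, 2.13 and 0.104 FPKM in *Pdgfra-tdT* saline mice and 1.94, 0.502, 0.0581 and 0.119 in *Pdgfra-tdT* bleomycin mice. Scaled *Vcl* in *Acta2-tdT* cells lay between 0.641 and 0.772 after saline and between 1.38 and 1.998 after bleomycin, with no overlap. The locus of *Vcl* overlaps that of *Ap3m1*, which in *Acta2-tdT* cells had between 0.495 and 0.844 FPKM after saline and between 4.58 and 9.71 after bleomycin, and the kit used does not mark strand, so reads in the shared stretch cannot be told apart. *Pdlim7* shares its locus with *Mir6945*, which was listed at 0 in all mice.

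**Figure D1:**
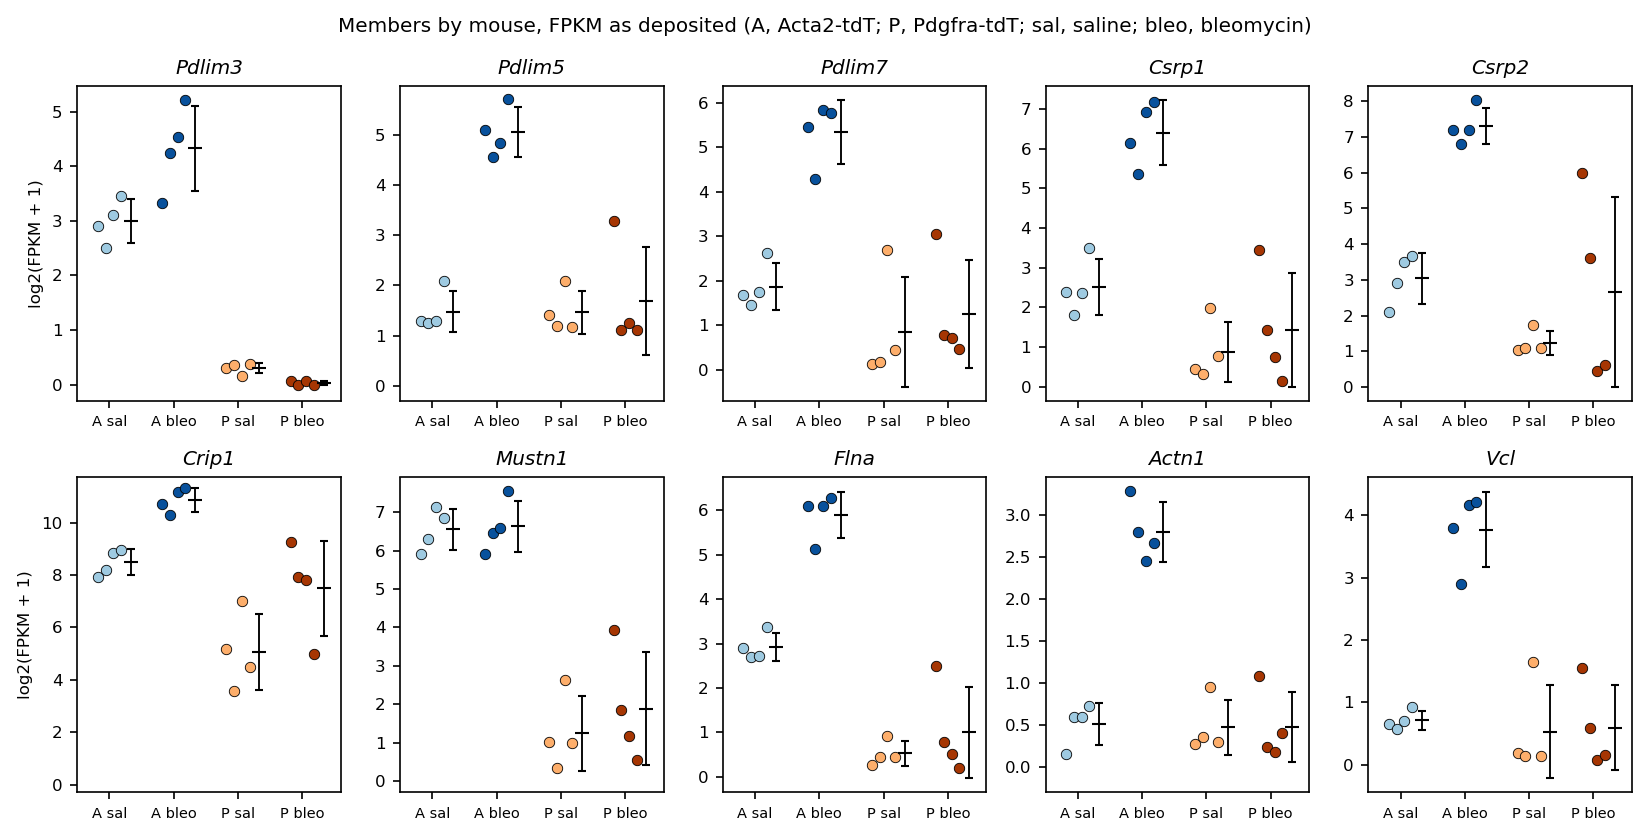
Level of each member by mouse as log2(FPKM + 1) of the deposited values, with points for single mice and bars for the mean and SD of 4 mice in each group (A, *Acta2-tdT*; P, *Pdgfra-tdT*). For 8 members every *Acta2-tdT* bleomycin mouse sat above all other mice, while *Pdlim3* overlapped between the *Acta2-tdT* groups and *Mustn1* lay at 59.4 to 139 and 59.3 to 185 FPKM. The share of all genes with that pattern was not computed. Of all genes past the filter on low values, 67.8% stood apart and higher in these mice against *Acta2-tdT* saline and 56.8% against *Pdgfra-tdT* bleomycin. Single *Pdgfra-tdT* mice stood above the rest of their groups.

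**Figure D2:**
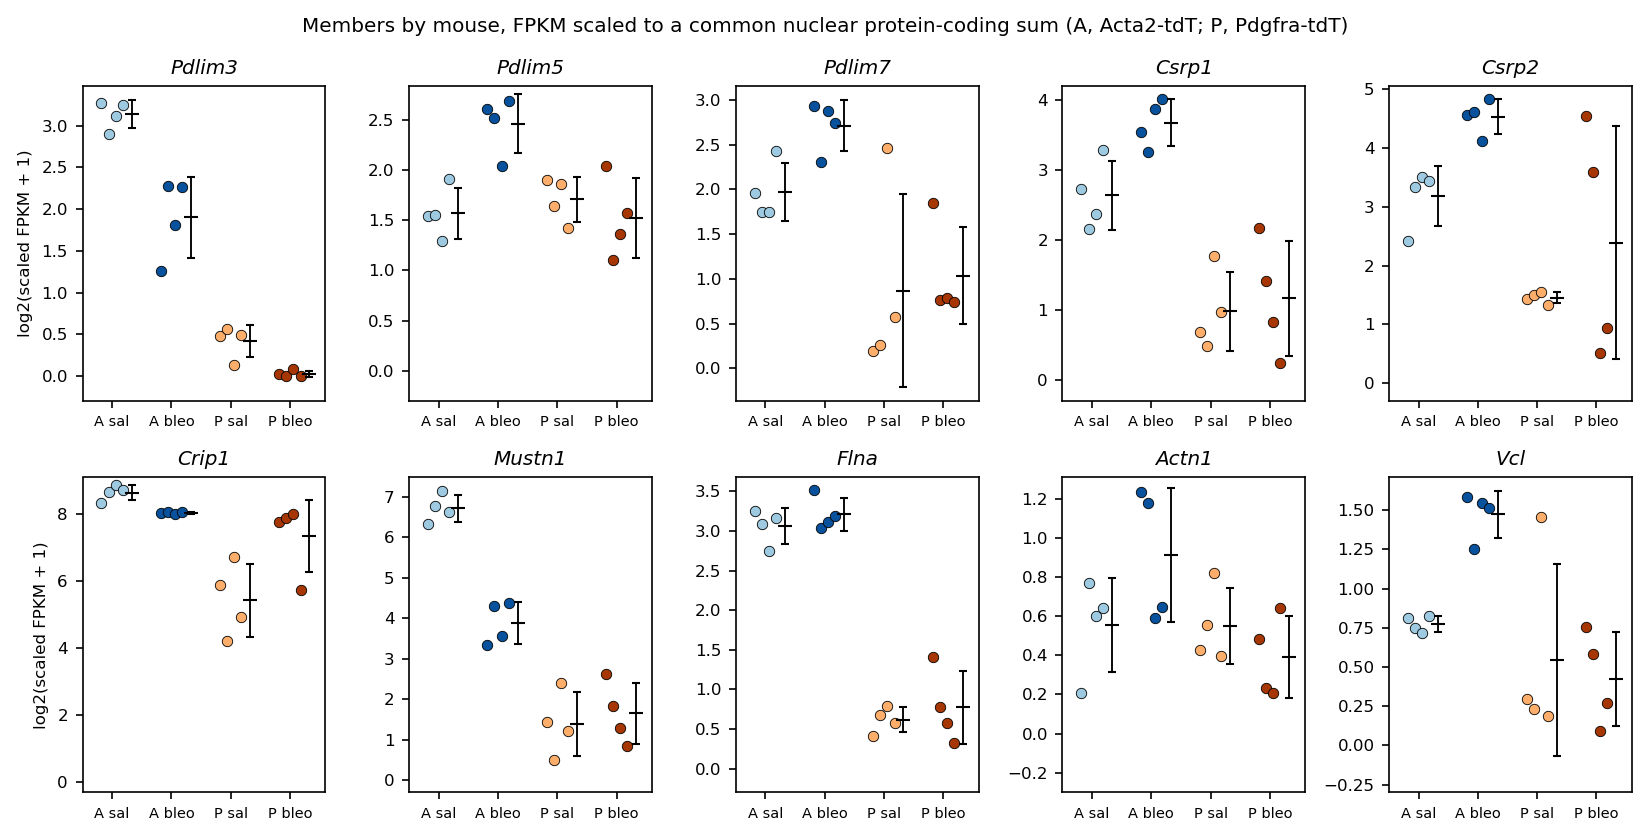
The same members after scaling each mouse to 1 common nuclear protein-coding sum, as log2(scaled FPKM + 1), with the mean and SD of 4 mice. In *Acta2-tdT* cells *Mustn1*, *Pdlim3* and *Crip1* lay lower with bleomycin than with saline, *Csrp2*, *Pdlim5* and *Vcl* lay higher, and the treatments overlapped for *Pdlim7*, *Csrp1*, *Flna* and *Actn1*.

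By mean FPKM with error (SD, n = 4), the order in *Acta2-tdT* saline was *Crip1* 373 ± 124, *Mustn1* 97.8 ± 35.7, *Csrp2* 7.92 ± 3.77, *Pdlim3* 7.22 ± 2.23, *Flna* 6.71 ± 1.82, *Csrp1* 5.30 ± 3.45, *Pdlim7* 2.85 ± 1.58, *Pdlim5* 1.87 ± 0.909, *Vcl* 0.651 ± 0.180 and *Actn1* 0.449 ± 0.233. Neighbours from *Csrp2* to *Csrp1*, and the pairs *Csrp1* with *Pdlim7*, *Pdlim7* with *Pdlim5* and *Vcl* with *Actn1*, differed by less than the larger of their SDs. In *Acta2-tdT* bleomycin the order of mean FPKM (SD, n = 4) was *Crip1* 1947 ± 585, *Csrp2* 165 ± 64.4, *Mustn1* 107 ± 54.5, *Csrp1* 93.5 ± 46.9, *Flna* 61.3 ± 18.7, *Pdlim7* 42.9 ± 17.2, *Pdlim5* 33.6 ± 12.7, *Pdlim3* 21.3 ± 11.3, *Vcl* 13.5 ± 5.10 and *Actn1* 6.13 ± 1.86. *Pdlim3* was at position 4 with saline and position 8 with bleomycin. Apart from *Crip1* with *Csrp2* and *Vcl* with *Actn1*, all neighbours in the bleomycin order differed by less than the larger of their SDs.

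Ratios between members of the same mouse do not depend on the scaling, and 2 pairs were chosen for them after the values were seen. The ratio of *Mustn1* to *Csrp2* FPKM was 18.2, 12.0, 13.5 and 9.87 in *Acta2-tdT* saline mice and 0.406, 0.792, 0.660 and 0.717 in *Acta2-tdT* bleomycin mice. The ratio of *Pdlim3* to *Pdlim7* was 3.001, 2.74, 3.26 and 1.94 with saline and 0.209, 0.972, 0.394 and 0.672 with bleomycin. In all 4 saline mice the first gene of each pair was the higher one, and in all 4 bleomycin mice the second. The mean log2 ratio (SD, n = 4) was 3.71 ± 0.37 and -0.68 ± 0.43 for *Mustn1* to *Csrp2*, and 1.42 ± 0.33 and -1.05 ± 0.96 for *Pdlim3* to *Pdlim7*.

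The comparison of the lines with saline asked how uninjured *Acta2-tdT* and *Pdgfra-tdT* cells differ. *Mustn1* had the largest log2 difference, *Acta2-tdT* minus *Pdgfra-tdT*, at 5.31 (SE 0.56), followed by *Crip1* at 3.42 (SE 0.77), *Pdlim3* at 2.69 (SE 0.20) and *Flna* at 2.40 (SE 0.21). *Csrp2* differed by 1.80 (SE 0.39), and for these 5 members the lines did not overlap on the deposited values, as for 6.56% of all genes past the filter on low values (higher in *Acta2-tdT*). For the other 5 they did, with *Csrp1* at 1.64 (SE 0.52), *Pdlim7* at 1.01 (SE 0.67), and *Vcl*, *Actn1* and *Pdlim5* at 0.19 (SE 0.38), 0.046 (SE 0.20) and 0.013 (SE 0.29). Scaled, *Csrp1* at 1.66 (SE 0.38) stood apart too, which made 6 members, beside 7.75% of all genes, and *Pdlim5* was at -0.14 (SE 0.17). The other scaled differences were *Mustn1* 5.33, *Crip1* 3.21, *Pdlim3* 2.72, *Flna* 2.45, *Csrp2* 1.72, *Pdlim7* 1.11, *Vcl* 0.23 and *Actn1* 0.0045. Without *Pdgfra-tdT* mouse 3, in which endothelial markers were high, *Csrp1*, *Pdlim7* and *Vcl* as deposited no longer overlapped, at 2.003, 1.63 and 0.56, so that 8 members stood apart. The share of all genes past the filter standing apart rose to 28.3%. *Vcl*, under 1 FPKM in every remaining mouse, is counted among the 8 but did not pass that filter. Log2 differences are of mean log2(FPKM + 1) and understate the change of genes with FPKM under about 1, such as *Vcl* and *Actn1*. In this comparison 8 members passed the filter on low values (4 or more of the 8 mice with an FPKM of 1 or higher), 2 of them, *Pdlim3* and *Flna*, through the *Acta2-tdT* mice alone.

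The families around the members were described with 65 companion genes in 12 lists, and tested with limma, Benjamini-Hochberg adjustment over all genes tested and a threshold of 0.05. With saline 23 companions could be tested, 3 of them through 1 line alone; 3 were called higher in *Acta2-tdT* cells and 0 lower, where 2.72% of all 8153 genes tested were called higher and 0.184% lower. Scaled, 4 were higher and 0 lower, against 3.20% and 0.221% of all genes. The median log2 difference of the tested companions was 0.92 as deposited and 0.98 scaled, and that of all genes 0.17 and 0.016. *Lmcd1*, a LIM protein of heart and smooth muscle, had 9.93 ± 5.68 FPKM in *Acta2-tdT* and 0.218 ± 0.0941 FPKM in *Pdgfra-tdT* cells (SD, n = 4). Its log2 difference was 3.02 (SE 0.38, limma adjusted p = 0.00631), and 3.08 scaled. *Zyx*, which encodes the adhesion scaffold zyxin, differed by 1.74 (SE 0.25, limma adjusted p = 0.0107) and *Lpp*, its relative, by 1.17 (SE 0.21, limma adjusted p = 0.0279), and both were called on the scaled values too. *Lmcd1* and *Zyx* were under 1 FPKM in every *Pdgfra-tdT* saline mouse and passed the filter through the *Acta2-tdT* mice alone, so their calls were favoured by the filter. The count was 0 of 18 to 19 tested without any 1 of the 4 *Acta2-tdT* mice, where 0.200% to 0.676% of all genes were called, and 17 of 21 without *Pdgfra-tdT* mouse 3, where the share of all genes called in either direction was 29.1% in place of 2.91%.

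With bleomycin, every member lay higher in every *Acta2-tdT* mouse than in every *Pdgfra-tdT* mouse on the deposited values, as did 56.8% of all genes past the filter. The log2 differences ran from 2.32 (SE 0.27) for *Actn1* to 4.97 (SE 0.82) for *Csrp1*, with *Flna* at 4.90 (SE 0.58), *Mustn1* at 4.75 (SE 0.81), *Csrp2* at 4.64 (SE 1.35) and *Pdlim3* at 4.30 (SE 0.39). The median difference of all 11995 genes tested was 1.81, and on the scaled values 0.14. Scaled, the members ran from 0.52 (SE 0.20) for *Actn1* to 2.51 (SE 0.44) for *Csrp1*, and *Csrp2*, *Pdlim5* and *Actn1* overlapped between the lines, which left 7 apart, beside 18.9% of all genes. All 10 members passed the filter here, *Pdlim3* through the *Acta2-tdT* mice alone.

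Of 49 companions tested in that comparison, 10 passed the filter through 1 line alone. As deposited 44 were higher in *Acta2-tdT* cells and 1 was lower, where 71.0% of all genes were called higher and 8.61% lower. After scaling, 19 were higher and 1 was lower, against 15.8% and 17.6%. The companions' median log2 difference was 2.47 and, scaled, 0.50. *Fhl1*, a LIM-only gene of striated and smooth muscle, was 127 to 267 FPKM in *Acta2-tdT* and 0.557 to 15.8 FPKM in *Pdgfra-tdT* mice. Its log2 difference was 5.74 (SE 0.85, limma adjusted p = 0.000218) and 3.19 scaled. *Pdlim4* differed by 5.20 (SE 0.71, limma adjusted p = 0.000146), *Fhl2* by 4.97 (SE 0.49, limma adjusted p = 4.90e-05) and *Lmcd1* by 4.81 (SE 0.49, limma adjusted p = 4.96e-05), and scaled by 2.64, 2.29 and 2.32, all 3 called. Of these, *Fhl2* and *Lmcd1* were under 1 FPKM in every *Pdgfra-tdT* mouse and passed the filter through the *Acta2-tdT* mice alone. *Actn2*, the sarcomeric alpha-actinin 2, was the gene called lower, at 0.439 to 1.23 FPKM in *Acta2-tdT* and 2.47 to 3.81 FPKM in *Pdgfra-tdT* mice, with a log2 difference of -1.08 (SE 0.30, limma adjusted p = 0.00635) and -1.75 scaled.

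**Figure D3:**
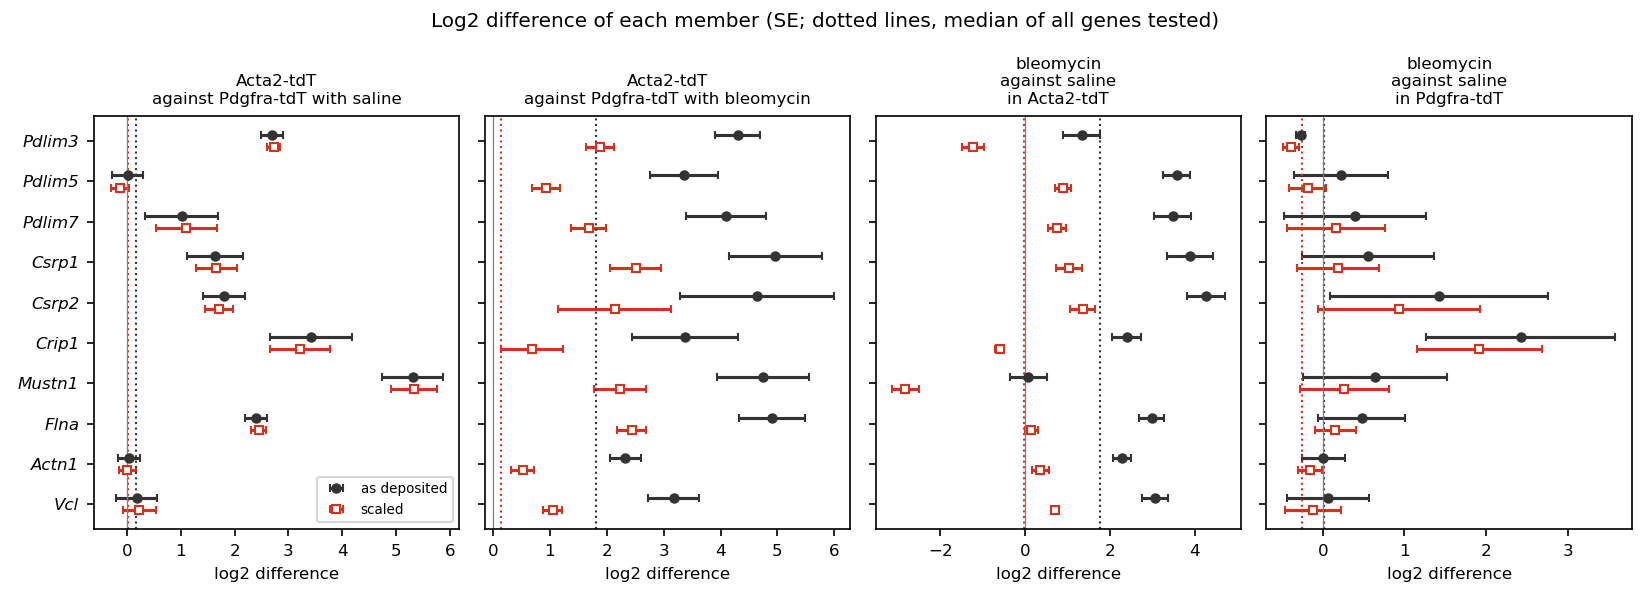
Log2 difference of each member in the 4 comparisons, as deposited (filled circles) and scaled (open squares), with SE bars and dotted lines at the median of all genes tested. In *Acta2-tdT* cells the scaled differences between treatments ran from -2.82 for *Mustn1* to 1.35 for *Csrp2*, while the deposited values were all above 0.

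Bleomycin against saline in *Acta2-tdT* cells asked how these cells differ after injury. On the deposited values the groups stood apart for 8 members, as for 67.8% of all genes past the filter (higher with bleomycin), with log2 differences from 2.28 (SE 0.22) for *Actn1* to 4.26 (SE 0.44) for *Csrp2*, where 70.4% of all 12523 genes tested were called higher and 16.3% lower and the median of all genes was 1.76. *Pdlim3* at 1.33 (SE 0.44) and *Mustn1* at 0.077 (SE 0.43) were the members below that median. After scaling, with a median of -0.022 for all genes, the members divided. *Csrp2* at 1.35 (SE 0.30), *Csrp1* at 1.04 (SE 0.30), *Pdlim5* at 0.89 (SE 0.19), *Pdlim7* at 0.74 (SE 0.21), *Vcl* at 0.70 (SE 0.080) and *Actn1* at 0.36 (SE 0.21) were above 0. *Flna* was at 0.15 (SE 0.15), near the median of all genes. *Crip1* at -0.60 (SE 0.11), *Pdlim3* at -1.24 (SE 0.26) and *Mustn1* at -2.82 (SE 0.31) were below 0. Under quantile normalization *Pdlim3* at -0.63 and *Mustn1* at -1.78 were also below 0, but *Crip1* was above it, at 1.17. Scaled, 3 members stood apart higher and 3 lower, beside 21.5% and 29.6% of all genes. All 10 members passed the filter, *Actn1* and *Vcl* through the bleomycin mice alone.

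Among 49 companions tested in *Acta2-tdT* cells, 47 rose with bleomycin as deposited and 1 fell, where 70.4% of all genes rose and 16.3% fell. Scaled, 23 rose and 6 fell, where 23.9% of all genes rose and 32.6% fell, and the companions' median log2 difference was 2.73 and, scaled, 0.39. Of the 49, 17 passed the filter through 1 treatment alone. Only 28 were called on both scales: 23 rose on both, 1 fell on both, and 4 rose as deposited and fell scaled. *Tes*, which encodes the LIM protein testin, was 0.380 to 0.911 FPKM with saline and 23.2 to 48.8 FPKM with bleomycin, a log2 difference of 4.58 (SE 0.32, limma adjusted p = 8.75e-06) and 1.87 scaled, and it passed the filter through the bleomycin mice alone. *Actn4*, the other nonmuscle alpha-actinin, was 0.860 to 2.02 and 25.9 to 90.6 FPKM, a difference of 4.52 (SE 0.45, limma adjusted p = 1.71e-05) and 1.77 scaled. *Fhl2* rose by 4.24 (SE 0.39, limma adjusted p = 1.46e-05) and *Parva*, the parvin that joins integrin-linked kinase to actin, by 4.10 (SE 0.36, limma adjusted p = 1.39e-05), and scaled by 1.54 and 1.36. *Actn2* fell by 1.02 (SE 0.22, limma adjusted p = 0.00123) and, scaled, by 1.88. Without any 1 of the 4 bleomycin mice the count of companions called was 31 of 32 tested in place of 48 of 49. The share of all genes called in either direction was then 79.1% to 86.1%, in place of 86.6%.

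The counts by list are of few genes each and stand beside 70.4% of all genes called higher as deposited and 23.9% scaled, so nothing is read from a single list. As deposited all tested companions rose in the PDZ-LIM (3 of 3), CRP and CRIP (1 of 1), FHL (3 of 3), zyxin (7 of 7), paxillin (3 of 3), talin and kindlin (3 of 3), tensin and vinexin (5 of 5), other LIM (7 of 7), adhesion kinase, Cas and Ena/VASP (6 of 6) and alpha-catenin (1 of 1) lists. In the ILK-PINCH-parvin complex 5 of 6 rose, and among filamins and actinins 3 of 4. After scaling, 2 of 3 PDZ-LIM genes, 3 of 4 filamins and actinins, 2 of 3 paxillin genes, 4 of 6 ILK-PINCH-parvin genes and 2 of 3 talins and kindlins rose. In the same scaled fit 1 of 3 FHL, 2 of 7 zyxin, 1 of 5 tensin and vinexin, 3 of 7 other LIM and 3 of 6 adhesion kinase, Cas and Ena/VASP genes rose, and 0 of 1 in both the CRP and CRIP and the alpha-catenin lists. The 6 that fell scaled were *Actn2*, *Lims2*, *Tns1*, *Tns2*, *Lmcd1* and *Nebl*, named after their values were seen. Their scaled log2 differences were -1.88, -1.27, -0.52, -0.49, -1.01 and -0.66. All but *Actn2* were above 0 as deposited, by 0.95, 1.60, 1.25, 1.71 and 0.78.

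**Figure D4:**
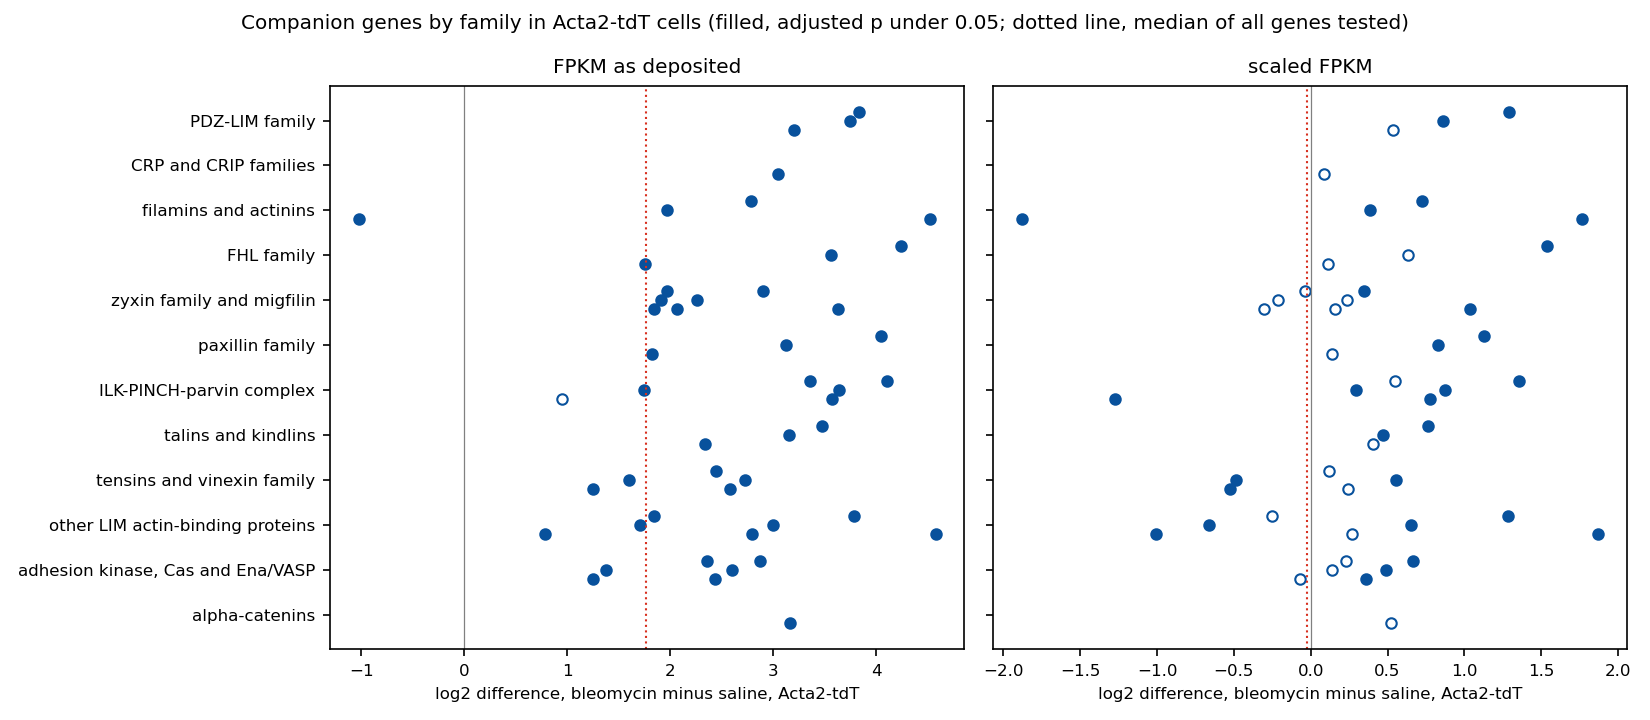
Companion genes by family in *Acta2-tdT* cells, as the log2 difference of bleomycin minus saline, as deposited (left) and scaled (right); filled points passed limma's adjusted threshold of 0.05 and the dotted line is the median of all genes tested. As deposited 47 of 49 rose, beside 70.4% of all genes, and scaled 23 rose and 6 fell, beside 23.9% and 32.6%.

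In *Pdgfra-tdT* cells the same question of injury gave wide spreads. *Crip1* had the largest log2 difference of the members, bleomycin minus saline, at 2.43 (SE 1.16) and 1.92 (SE 0.77) scaled, and its ranges of 10.8 to 127 and 30.4 to 612 FPKM overlapped. *Csrp2* was at 1.43 (SE 1.33), *Mustn1* at 0.64 (SE 0.89), *Csrp1* at 0.56 (SE 0.81), *Flna* at 0.48 (SE 0.53), *Pdlim7* at 0.39 (SE 0.87), *Pdlim5* at 0.22 (SE 0.57), *Vcl* at 0.066 (SE 0.50) and *Actn1* at 0.0033 (SE 0.26), and all of these overlapped between treatments. *Pdlim3* was the one member without overlap, at -0.27 (SE 0.052), with every value under 0.3 FPKM in both groups, where 1.15% of all genes past the filter stood apart and lower, and 0.962% scaled. The scaled differences were *Csrp2* 0.93, *Mustn1* 0.26, *Csrp1* 0.19, *Pdlim7* 0.16, *Flna* 0.15, *Vcl* -0.12, *Actn1* -0.16, *Pdlim5* -0.19 and *Pdlim3* -0.39, so that 9 members were above 0 as deposited and 6 scaled. Only 4 members, *Pdlim5*, *Csrp2*, *Crip1* and *Mustn1*, passed the filter on low values.

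Of 12 companions tested in *Pdgfra-tdT* cells, limma called 0 higher and 0 lower on either scale. The same fits called 0.0275% of all 7275 genes higher and 0.0962% lower as deposited, and 0.0275% and 0.110% scaled, so the comparison made few calls of any kind. At an unadjusted p under 0.05, 169 of all genes were higher and 143 lower as deposited. The companions' median log2 difference was 0.76 and, scaled, 0.43, beside 0.017 and -0.25 for all genes.

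In *Pdgfra-tdT* mice most members were highest in the same mice as the endothelial markers. The 7 endothelial markers summed to 428 scaled FPKM in saline mouse 3 and 446 in bleomycin mouse 5, against 8.84 to 22.8 in the other saline mice and 9.24 to 134 in the other bleomycin mice. None of the 7 was listed at 0 throughout a group. The sum of the 8 fibroblast markers was highest in the same mice, at 47.2 in saline mouse 3 against 12.2 to 21.5 and at 57.2 in bleomycin mouse 5 against 4.18 to 18.6. Most of it was *Dcn*, at 36.2 and 34.2 scaled FPKM, so the list did not rise as a whole. Scaled *Pdgfra* was 3.13 in saline mouse 3, where its group ran from 2.91 to 4.95. In bleomycin mouse 5 it was 0.873, the lowest of that group. The sum of the 6 smooth muscle markers was highest in bleomycin mouse 5, at 11.3 against 1.70 to 2.98, but not in saline mouse 3, at 10.3 against 6.51 to 21.0. *Cldn5*, a tight junction gene of endothelium, reached 246 FPKM in saline mouse 3 and 741 FPKM in bleomycin mouse 5. On the scaled values 8 of 10 members were highest in saline mouse 3 among the saline mice, and 7 of 10 in bleomycin mouse 5 among the bleomycin mice. The share of all genes highest in these mice was not computed, so the counts are a description. Both mice also had the most genes with an FPKM of 1 or higher. Saline mouse 3 had 10191, against at most 7422 in its group, and bleomycin mouse 5 had 10942, against at most 8644. Without these 2 mice the log2 difference of *Csrp2* between treatments was 0.49 in place of 1.43, that of *Csrp1* 0.26 in place of 0.56, that of *Flna* 0.11 in place of 0.48, that of *Mustn1* 0.42 in place of 0.64, and that of *Crip1* 2.48 in place of 2.43. *Pdlim5* turned from 0.22 to -0.11 and *Actn1* from 0.0033 to -0.039, *Vcl* was at 0.12 and *Pdlim3* at -0.33, and *Pdlim7*, at 0.41 in place of 0.39, no longer overlapped between treatments. Its remaining values were all under 1 FPKM, at 0.0859 to 0.355 with saline and 0.386 to 0.704 with bleomycin. The share of all genes standing apart between treatments without these mice was not computed, so nothing is read from that separation. The part of these cell types in the members' levels was not tested. In *Acta2-tdT* mice the same markers summed to 12.6 to 16.2 scaled FPKM with saline and 4.42 to 7.56 with bleomycin.

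**Figure D5:**
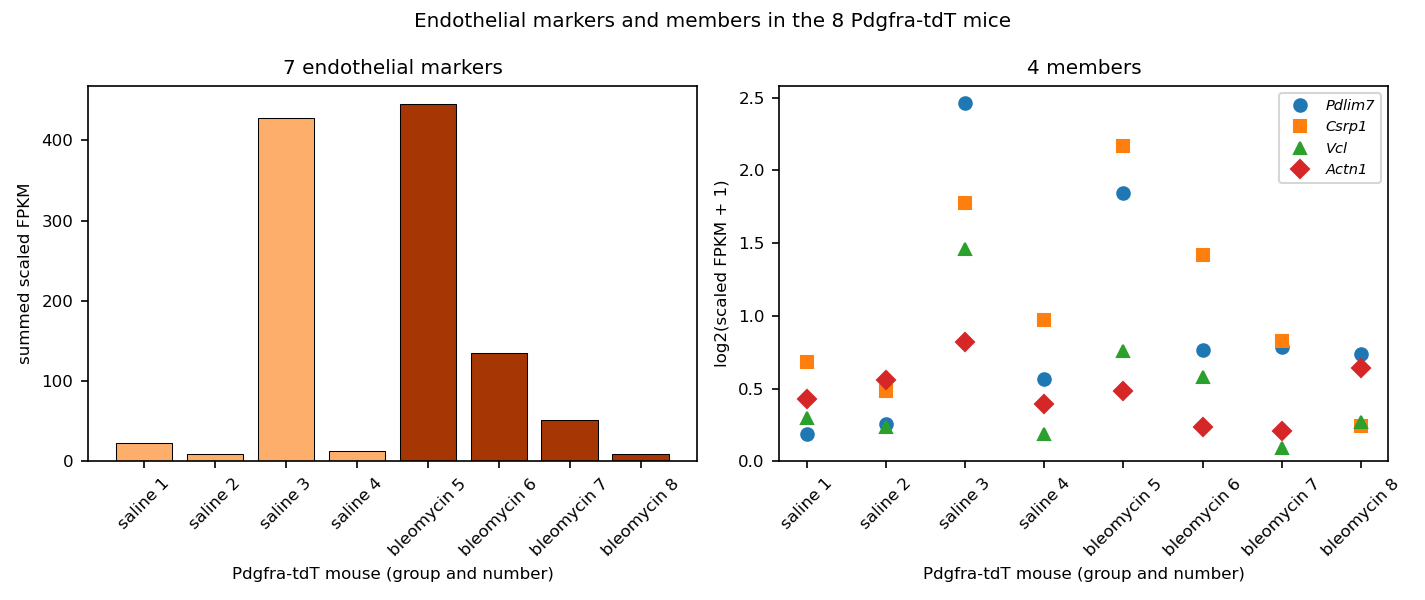
Summed scaled FPKM of 7 endothelial markers (left, bars from 0) and log2(scaled FPKM + 1) of *Pdlim7*, *Csrp1*, *Vcl* and *Actn1* (right) in each of the 8 *Pdgfra-tdT* mice. Saline mouse 3 and bleomycin mouse 5, at 428 and 446 for the markers, had the highest *Pdlim7*, *Csrp1* and *Vcl* of their groups, while *Actn1* with bleomycin was highest in mouse 8.

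The interaction of line and treatment tested whether the response to bleomycin differed between the lines, over all 16 mice and 16605 genes. As deposited, 33 of 49 companions rose more in *Acta2-tdT* cells and 0 rose less, where 36.6% of all genes were called in the first direction and 3.20% in the second. On the scaled values 1 was called, *Fhl2*, and 0 in the other direction, against 1.33% and 0.891% of all genes. The interaction of *Fhl2* was 4.50 on the log2 scale (SE 0.47, limma adjusted p = 2.03e-05) and 1.97 scaled (SE 0.40, limma adjusted p = 0.0181). *Fhl2* was under 1 FPKM in every *Pdgfra-tdT* mouse, so it passed the filter through *Acta2-tdT* mice alone and the pseudocount flattens its difference in *Pdgfra-tdT* cells. *Parva* at 4.28 (SE 0.68, limma adjusted p = 0.000392), *Tes* at 4.02 (SE 0.74, limma adjusted p = 0.00101) and *Actn4* at 3.82 (SE 1.26, limma adjusted p = 0.0267) followed as deposited, with scaled values of 1.83, 1.68 and 1.41 that did not pass. Without *Pdgfra-tdT* mice 3 and 5 the counts were 46 as deposited and 12 scaled, where 56.3% and 15.7% of all genes were called in either direction, in place of 39.8% and 2.22% with all mice.

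The Cufflinks interval of a level gives its precision, as the authors' program set it. Its lower bound was 0 for 0 of 40 member values in either *Acta2-tdT* group, 3 of 40 in *Pdgfra-tdT* saline mice and 9 of 40 in *Pdgfra-tdT* bleomycin mice. FPKM was under 1 for 8 of 40 member values in *Acta2-tdT* saline, 0 of 40 in *Acta2-tdT* bleomycin, 23 of 40 in *Pdgfra-tdT* saline and 21 of 40 in *Pdgfra-tdT* bleomycin, and in *Pdgfra-tdT* cells these were 8 of 8 values of *Pdlim3*, 7 of 8 each of *Flna* and *Actn1*, 6 of 8 each of *Pdlim7* and *Vcl*, 5 of *Csrp1*, 3 of *Mustn1*, 2 of *Csrp2* and 0 of *Pdlim5* and *Crip1*.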

How the data were processed

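RNA of sorted tdTomato-positive lung cells from 16 mice was sequenced after SmartSeq2 library preparation. The authors aligned reads with TopHat2 2.1.1 and Bowtie2 2.2.9 to GRCm38 and computed FPKM per gene and mouse with Cufflinks 2.1.1, and these deposited FPKM, with their bounds, were used here. FPKM depend on all mapped fragments, so a mouse with more signal outside nuclear protein-coding genes has lower FPKM for each gene, and values were also scaled to a common nuclear protein-coding sum. The depth is unknown, since FPKM hold no counts, and no interval that needs depth was computed. The 49534 rows gave 49452 genes, and 15 with a failed or too deep Cufflinks status were left out. No mouse duplicated another's values.

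Groups were taken from the strain and agent labels. Each was compared with limma 3.58.1 in R 4.3.3 (lmFit and eBayes, trend enabled) on log2 values of FPKM with a pseudocount of 1; a gene entered when 4 or more mice of the fit had an FPKM of 1 or higher, with Benjamini-Hochberg adjustment at 0.05. The fit was tested on simulated data. Python 3.11.15, pandas 2.3.3 and matplotlib 3.10.9 were used for tables and plots. The members and the companion lists were chosen with earlier results of these data known. The companion genes are the other members of the same families and adhesion complexes, taken by family and not by how they moved. All members are named; of the companions, up to 4 with the largest positive and up to 4 with the largest negative log2 difference among those called as deposited are named in each comparison, and further names are marked. Alternatives were scaled FPKM, a pseudocount of 0.1, no filter, all 16 mice in 1 fit, sample quality weights, quantile normalization, leaving out each mouse, and the mouse number as a replicate block. Leaving out *Pdgfra-tdT* mice 3 and 5 was added after the data were seen. The mice are separate animals by their numbers, and the labels name no batch.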

Additional observations from a re-analysis of the deposited data

Results flagged for a closer look

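Single mice stood far from the rest of their group for several members. A mouse was marked when the gap of the highest or lowest log2(FPKM + 1) to the next, divided by the range of the 4 mice, was above Dixon's 95% critical value for 4 values. This held for 8 of 40 groups of values as deposited and 5 of 40 scaled, where chance marks about 1 in 20 single groups of independent values; these groups share the same 16 mice and the members were chosen on their values, so the counts are a description and cannot be read against that share. In *Pdgfra-tdT* saline, mouse 3 was the highest for *Vcl* (0.970 as deposited, 0.918 scaled), *Csrp2* (0.913 as deposited), *Pdlim7* (0.876 as deposited, 0.833 scaled) and *Actn1* (0.868 as deposited). In *Pdgfra-tdT* bleomycin, mouse 5 was the highest for *Pdlim5* (0.935 as deposited) and *Pdlim7* (0.885 as deposited, 0.953 scaled), and mouse 8 was the lowest for *Crip1* (0.893 scaled). In *Acta2-tdT* saline, mouse 4 was the highest for *Pdlim5* (0.973 as deposited) and mouse 1 the lowest for *Csrp2* (0.832 scaled). In *Acta2-tdT* bleomycin, mouse 6 was the lowest for *Flna* (0.847 as deposited), and its nuclear protein-coding sum of 231058 was the lowest of that group.

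The difference between treatments differed between the lines for 33 companion genes as deposited by the interaction term of limma, and for 1, *Fhl2*, on the scaled values. Of all genes, 36.6% were called in that direction as deposited and 1.33% scaled, so the scaled count of 1 of 49 lies near the share over all genes.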

How the results depend on the processing

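Scaling to a common sum moved the counts of companions called from 45 to 20 between the lines with bleomycin, from 48 to 29 between treatments in *Acta2-tdT*, and from 33 to 1 for the interaction. It turned the *Acta2-tdT* difference of *Pdlim3* from 1.33 to -1.24 and that of *Crip1* from 2.39 to -0.60, and quantile normalization turned *Pdlim3* to -0.63 but left *Crip1* at 1.17. The share of all genes called moved too, from 79.6% to 33.4%, from 86.6% to 56.6% and from 39.8% to 2.22%. For the interaction, a pseudocount of 0.1 gave 18 and quantile normalization 8, with 20.9% and 9.58% of all genes called. Sample quality weights gave 47 of 49 tested and no filter 29 of 65, with 64.2% and 12.2% of all genes called. For the lines with saline, no filter gave 1, all 16 mice in 1 fit 1 and sample quality weights 16, against 3, with 0.135%, 0.687% and 33.3% of all genes called, against 2.91%. The cause was not tested. Without Pdgfra-tdT mice 3 and 5 the scaled counts were 19 for the lines with saline and 12 for the interaction, where 38.7% and 15.7% of all genes were called. Leaving out 1 mouse gave 0 to 17 for the lines with saline, 30 to 49 for the lines with bleomycin, 31 to 49 for *Acta2-tdT* treatments and 22 to 44 for the interaction, while the share of all genes called ran from 0.200% to 29.1%, 65.0% to 88.7%, 79.1% to 88.1% and 25.1% to 56.8%; 17 companions in *Acta2-tdT* pass the filter only with all 4 bleomycin mice. In *Pdgfra-tdT* the count was 0 under every alternative run. There the share of all genes called was 7.53% with sample quality weights and 0.00% to 1.07% without 1 mouse, against 0.124% with all mice.

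The mouse numbers recur in both lines, but correlations of deviations between mice of the same number were 0.095, 0.099, 0.157 and -0.086 with saline and -0.088, 0.071, -0.096 and -0.307 with bleomycin. These values gave no sign that the numbers pair the mice, but 4 mice in each group are too few to exclude it. With the number as a replicate block the counts were 0 for the lines with saline, 45 with bleomycin and 28 for the interaction, and with the block and scaling 2, 15 and 0, where 0.442%, 78.2% and 31.6%, and 1.29%, 27.5% and 0.337%, of all genes were called. Between treatments no paired analysis was possible because the groups share no number. Of the members' 40 differences, the sign turned for 7 under scaling, 4 under quantile normalization, 1 with a pseudocount of 0.1 and 0 with the largest row per gene. Depth is unknown and could not be weighed.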
